A study of Mus musculus with 6 samples.

Results

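The Notch pathway of mouse epidermis was described through 10 genes: the receptors Notch1, Notch2 and Notch3, the ligands Jag1, Jag2 and Dll1, the DNA-binding effector Rbpj and the targets Hes1, Hey1 and Nrarp. Each was taken by its symbol from the deposited table of 49452 gene rows, where all 10 were found. The tested libraries came from epidermis labelled Rictor -/- (263, 265 and 266, titled ricEKO), and the libraries set against them came from epidermis labelled Control (261, 262 and 264). All 6 came from C57BL/6 embryos at E19.5 and hold total RNA of separated epidermis. The labels name no Cre driver or allele for either genotype and do not say whether a library is 1 animal, so a p-value speaks only of the variation among these 6 samples, some of which may be technical.

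Notch receptors are membrane proteins that are cut when a ligand of the Delta or Jagged family on a neighbouring cell pulls on them. The freed intracellular domain enters the nucleus, binds Rbpj and turns repressed targets on. In epidermis the pathway is known for driving basal keratinocytes into the spinous layer, with Jag2 known in mice mainly from basal cells and Jag1 mainly from the layers above.

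Values are FPKM, fragments scaled by transcript length and library total, so levels of different genes can be compared within a library. Differences are on the log2(FPKM + 1) scale, libraries labelled Rictor knockout minus control, with limma's SE. The test took in the 13500 genes whose mean reached 1 FPKM in the knockout-labelled libraries or in the controls, and a call is a Benjamini-Hochberg adjusted p under 0.05 over all of them.

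Rictor itself was not lower in the knockout-labelled libraries. It stood at 6.83, 7.04 and 6.86 FPKM in knockout-labelled 263, 265 and 266, against 5.63, 6.02 and 4.37 FPKM in controls 261, 262 and 264. A value over the whole gene can keep reads from exons outside a deletion, so it does not check the labels. Summed FPKM were 609375 to 622019 in the knockout-labelled libraries and 623490 to 672925 in the controls, and the steps between low values put all depths within 1.21 times that of control 261. Control 264 stood apart. Across genes, which are not independent replicates, Spearman's rho of the deviations from the gene means with exonic length was 0.173 to 0.263 in the knockout-labelled libraries, against -0.00709, 0.00280 and -0.358 in controls 261, 262 and 264. Genes over 8 kb had a median log2 difference of 0.04 and genes under 2 kb one of -0.18. Without control 264 these medians were -0.002 and -0.115, so leaving it out lessened the trend with length but did not remove it. Values of the members are therefore also given without control 264 and after removing each library's trend on length and GC content, wherever that changes a call or a direction.

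Markers of the epidermal layers were abundant, and most of those of vessels were nearly absent. The 5 basal markers summed to 10997 to 13021 FPKM in the knockout-labelled libraries and 6193 to 7126 FPKM in the controls, and 5 of 5 rose. The spinous and granular markers had 0 of 5 higher and 1 of 5 lower each. Of all tested genes 7.91% were called higher and 15.6% lower, the shares beside which each marker count here stands. Hair follicle markers summed to 902 to 1040 FPKM in the knockout-labelled libraries and 1473 to 1842 FPKM in the controls, with 8 of 10 lower. Of 8 endothelial markers 7 stayed under 1 FPKM in every library, at most 0.449 FPKM, while Egfl7 stood at 2.38 to 4.23 FPKM. Of 8 pericyte and smooth muscle markers 5 stayed at or below 0.136 FPKM, and Acta2 rose. Dermal fibroblast markers summed to 125 to 160 FPKM in the knockout-labelled libraries and 115 to 143 FPKM in the controls, with 2 of 5 tested higher. Myeloid markers summed to 49.9 to 55.7 FPKM in the knockout-labelled libraries and 78.6 to 108.9 FPKM in the controls, with 6 of 7 tested lower. Melanocyte markers summed to 285 to 322 FPKM in the knockout-labelled libraries and 380 to 461 FPKM in the controls, with 4 of 7 lower. T cell markers summed to 31.1 to 34.4 FPKM in the knockout-labelled libraries and 13.2 to 23.4 FPKM in the controls. This difference came from Thy1, which rose from 6.50 to 11.8 FPKM in the controls to 27.2 to 31.2 FPKM in the knockout-labelled libraries. The other T cell markers did not rise with it. Cd3e and Cd3g fell, Cd3d and Trdc, not tested, were lower in every knockout-labelled library than in every control, and the low Trac overlapped. Of 3 tested skeletal muscle markers 0 passed. The count of markers at 0 in every library was 0. In whole tissue, fewer cells of a type and less RNA per cell cannot be told apart. What part these shifts have in the Notch values was not tested.

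Jag2 and Nrarp were the members that rose, Notch1 showed the largest difference without passing in the fit of all libraries, and the other tested members did not pass. Of the 10 members 9 had a mean of at least 1 FPKM, each of them in both groups. Of these, 2 rose and 0 fell, beside 7.91% of all tested genes called higher and 15.6% called lower (23.5% called in either direction). At limma's unadjusted p under 0.05 the members had 3 higher and 0 lower. The share of all tested genes at that cut was not counted, so nothing is read from these counts. At a limma adjusted p under 0.10, 3 of the 9 were higher and 0 lower, beside 1574 and 2977 of all 13500 tested genes. The median difference was 0.12 over the 9 members and -0.06 over all tested genes. In 3 of the 9 the groups did not overlap, all higher in the knockout-labelled libraries, beside 45.8% of all tested genes without overlap, 16.6% higher and 29.2% lower. Without control 264, 3 members rose and 1 fell, beside 28.1% of tested genes called, 11.2% higher and 16.8% lower. After the length and GC adjustment 3 rose and 0 fell, beside 24.4% called, 12.4% higher and 12% lower.

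**Figure D1:**
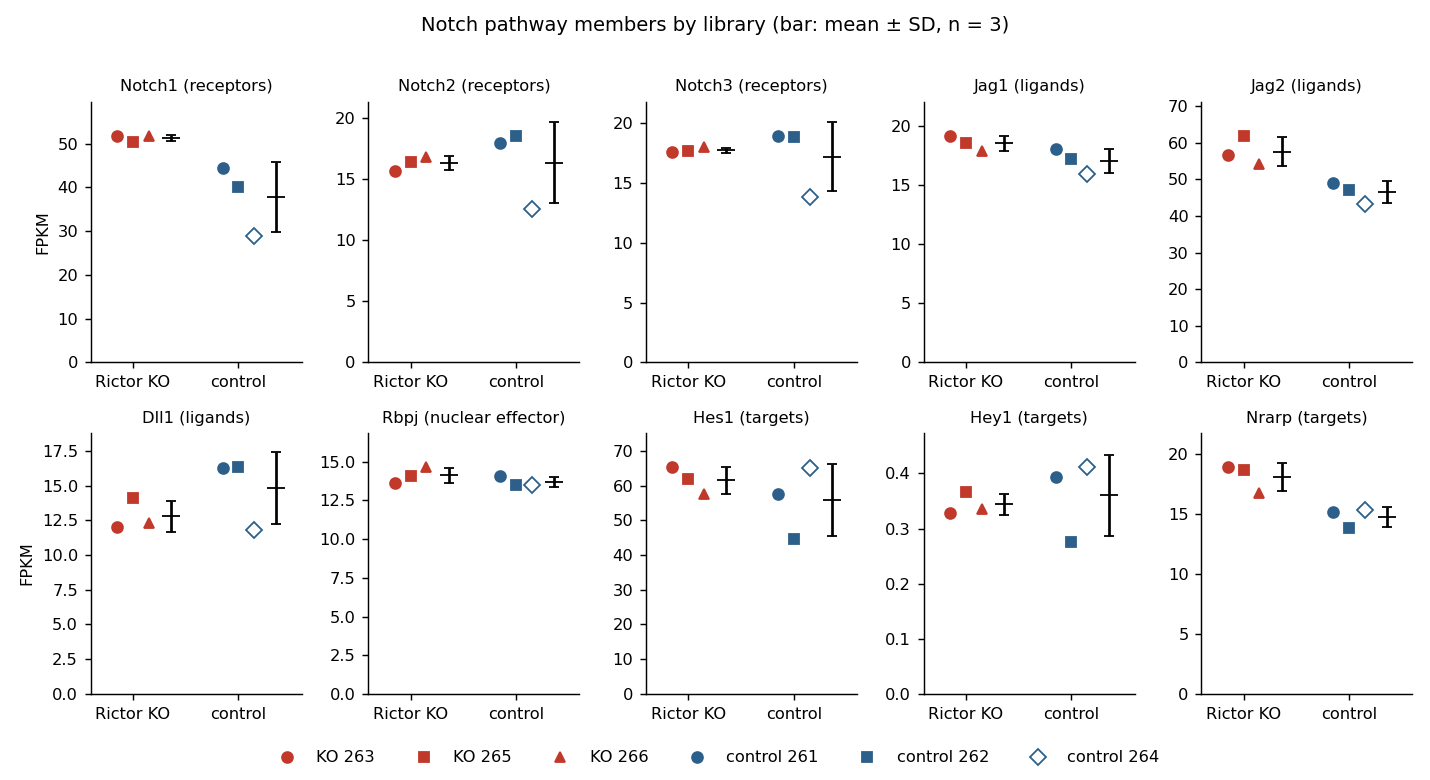
FPKM of the 10 members in each library, with the knockout-labelled libraries left of the controls in every panel and bars at the mean ± SD (n = 3). For Notch1, Jag2 and Nrarp every knockout-labelled library lies above every control, and for Notch1, Notch2 and Notch3 control 264 (open diamond) is the lowest library.

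Among the receptors, Notch1 was the most abundant and the only one of the 3 whose groups did not overlap. Notch1 (ENSMUSG00000026923, chromosome 2, 26457903 to 26516663, minus strand) stood at 51.7, 50.4 and 51.8 FPKM in knockout-labelled 263, 265 and 266, against 44.5, 40.0 and 29.0 FPKM in controls 261, 262 and 264. All 3 knockout-labelled libraries lay close together above the controls, among which 264 was far the lowest. The mean was 51.3 ± 0.763 FPKM in the knockout-labelled libraries and 37.8 ± 8.0 FPKM in the controls (SD, n = 3 each), 1.36 times as high. The log2 difference of 0.45 ± 0.15 did not pass (limma adjusted p = 0.0700). Without control 264 it was smaller, 0.28 ± 0.06, and passed (adjusted p = 0.0245), as it did after the length and GC adjustment (0.39 ± 0.09, adjusted p = 0.0287). The exons of Notch1 span 14232 bases, the most of the 10 members.

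For Notch2 and Notch3 the sign of the difference was not stable, turning without control 264 and in some other fits. Notch2 (ENSMUSG00000027878, chromosome 3, 98013527 to 98150361, plus strand) had 15.7, 16.4 and 16.8 FPKM in the knockout-labelled libraries and 17.9, 18.5 and 12.5 FPKM in controls 261, 262 and 264. Notch3 (ENSMUSG00000038146, chromosome 17, 32120820 to 32166852, minus strand) had 17.6, 17.6 and 18.0 FPKM in the knockout-labelled libraries and 18.9, 18.8 and 13.8 FPKM in the controls. Both genes were lower in every knockout-labelled library than in controls 261 and 262 and higher than in control 264. With all libraries the differences were 0.01 ± 0.14 for Notch2 and 0.06 ± 0.12 for Notch3 (limma adjusted p = 0.953 and 0.761), with 95% intervals of -0.32 to 0.35 and -0.23 to 0.34. Without control 264 their sign turned, to -0.15 ± 0.05 and -0.09 ± 0.05 (adjusted p = 0.0844 and 0.216). That of Notch2 also turned after the length and GC adjustment (-0.01 ± 0.10, adjusted p = 0.950) and without 266 (-0.00788). With array weights both were below 0 (-0.117 and -0.0725).

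The make-up of the receptors within a library separated the groups whether or not control 264 was counted. A share of the summed FPKM of the 3 receptors does not move with a factor that scales a whole library. Notch1 made up 60.9%, 59.7% and 59.8% of the receptor sum in knockout-labelled 263, 265 and 266, against 54.7%, 51.7% and 52.3% in controls 261, 262 and 264. Control 264 lay between the other controls in this measure. The Notch1 share was 7.22 percentage points higher in the knockout-labelled libraries, 6.93 without control 264 and 6.65 after the length and GC adjustment. Notch2 held 19.1% ± 0.559 in the knockout-labelled libraries and 22.9% ± 0.982 in the controls, and Notch3 held 20.8% ± 0.0775 in the knockout-labelled libraries and 24.2% ± 0.877 in the controls (SD, n = 3 each). The groups did not overlap for any of the 3 shares, which add up to the whole and are not independent of each other. Each gave p = 0.10 in a two-sided exact permutation test, the smallest that 3 against 3 libraries allow. The receptor sum itself was 85.0, 84.4 and 86.6 FPKM in the knockout-labelled libraries and 81.4, 77.4 and 55.4 FPKM in controls 261, 262 and 264.

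**Figure D2:**
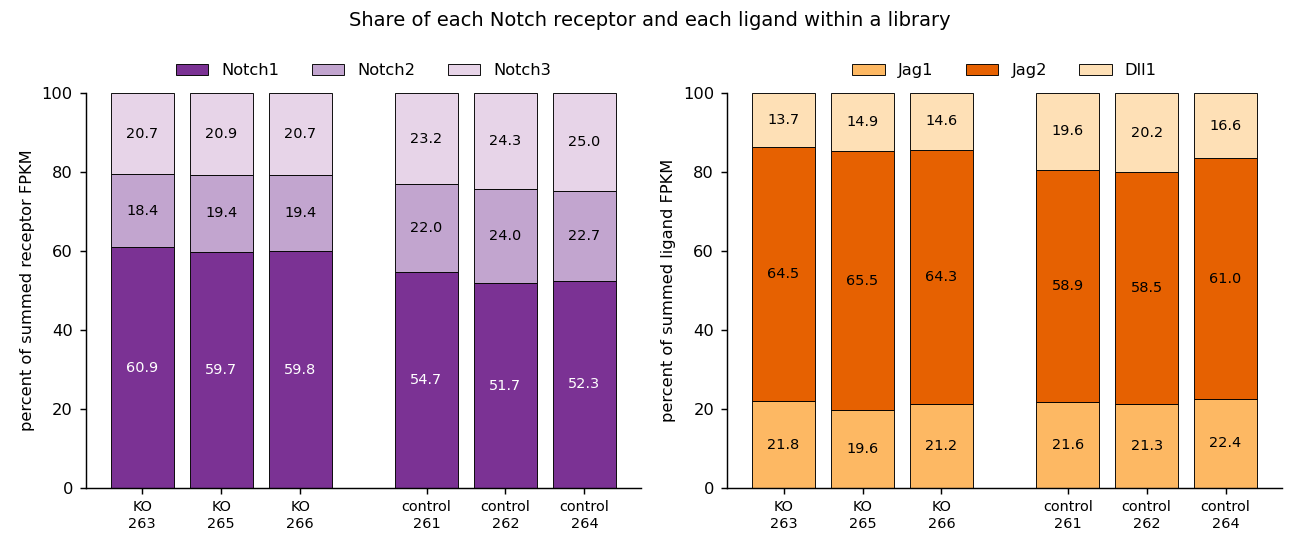
Share of each receptor (left) and each ligand (right) in the summed FPKM of its family, one bar a library, knockout-labelled libraries left of the controls. Notch1 takes 59.7% to 60.9% in the knockout-labelled libraries and 51.7% to 54.7% in the controls, and Jag2 takes 64.3% to 65.5% in the knockout-labelled libraries and 58.5% to 61.0% in the controls.

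Among the ligands, Jag2 rose and made up a larger share of the ligand sum, while Dll1 took a smaller one. Jag2 (ENSMUSG00000002799, chromosome 12, 112907819 to 112929776, minus strand) stood at 56.5, 61.9 and 54.3 FPKM in knockout-labelled 263, 265 and 266, against 49.0, 47.2 and 43.3 FPKM in controls 261, 262 and 264. All knockout-labelled libraries lay above all controls. The mean was 57.6 ± 3.91 FPKM in the knockout-labelled libraries, against 46.5 ± 2.94 FPKM in the controls (SD, n = 3 each), 1.24 times as high. The log2 difference was 0.30 ± 0.08 (limma adjusted p = 0.0354), 0.25 ± 0.07 without control 264 (adjusted p = 0.0439) and 0.28 ± 0.06 after the length and GC adjustment (adjusted p = 0.0208). The call was lost without a filter on low values (adjusted p = 0.0609) and when any library other than control 264 was left out (adjusted p = 0.0611 to 0.107), with a difference of 0.25 to 0.34 over all libraries left out in turn. Jag2 is read here beside basal markers that rose in the same libraries, and how much of its rise goes with them was not tested.

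Dll1 (ENSMUSG00000014773, chromosome 17, 15367354 to 15376872, minus strand) had 12.0, 14.1 and 12.3 FPKM in the knockout-labelled libraries and 16.3, 16.3 and 11.8 FPKM in controls 261, 262 and 264. Controls 261 and 262 lay above every knockout-labelled library and control 264 below them. With all libraries the difference was -0.19 ± 0.13 (limma adjusted p = 0.345), and without control 264 Dll1 fell, at -0.33 ± 0.08 (adjusted p = 0.0310). The length and GC adjustment gave -0.13 ± 0.14 (adjusted p = 0.515). Jag1 (ENSMUSG00000027276, chromosome 2, 137081456 to 137116644, minus strand) had 19.1, 18.5 and 17.9 FPKM in the knockout-labelled libraries and 18.0, 17.2 and 15.9 FPKM in the controls, where the lowest knockout-labelled value lay just under the highest control. Its difference was 0.12 ± 0.07 (adjusted p = 0.249), with a 95% interval of -0.04 to 0.28.

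Within a library Jag2 held 64.5%, 65.5% and 64.3% of the ligand sum in knockout-labelled 263, 265 and 266, against 58.9%, 58.5% and 61.0% in controls 261, 262 and 264. Dll1 held 13.7%, 14.9% and 14.6% in the knockout-labelled libraries and 19.6%, 20.2% and 16.6% in the controls. In both shares the groups did not overlap, and control 264 was the control nearest to the knockout-labelled libraries (two-sided exact permutation p = 0.10 each, the smallest possible). The Jag2 share was 5.31 percentage points higher and 6.06 without control 264, and the Dll1 share differed by -4.42 points with all libraries. For Jag1 the groups overlapped, with a share of 20.9% ± 1.14 in the knockout-labelled libraries and 21.8% ± 0.585 in the controls (exact permutation p = 0.40). In all, 6 shares were compared.

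Rbpj, the DNA-binding partner of the Notch receptors, showed no detectable difference. Rbpj (ENSMUSG00000039191, chromosome 5, 53466152 to 53657362, plus strand) had 13.6, 14.1 and 14.6 FPKM in the knockout-labelled libraries and 14.1, 13.5 and 13.5 FPKM in the controls. The groups overlapped, and the difference was 0.04 ± 0.06 (limma adjusted p = 0.639) with a 95% interval of -0.10 to 0.18. Control 264 did not stand apart in this gene, whose exons span 12750 bases.

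Among the targets, Nrarp rose, Hes1 varied among the controls and Hey1 was barely detected. Nrarp encodes a small ankyrin repeat protein that Notch signalling induces and that in turn limits it. Nrarp (ENSMUSG00000078202, chromosome 2, 25180758 to 25183339, plus strand) stood at 18.9, 18.6 and 16.8 FPKM in knockout-labelled 263, 265 and 266, against 15.1, 13.8 and 15.3 FPKM in controls 261, 262 and 264. All knockout-labelled libraries lay above all controls, with 266 the nearest to them. The mean was 18.1 ± 1.16 FPKM in the knockout-labelled libraries, against 14.8 ± 0.817 FPKM in the controls (SD, n = 3 each), 1.23 times as high. The difference was 0.28 ± 0.07 (limma adjusted p = 0.0382), 0.30 ± 0.08 without control 264 (adjusted p = 0.0351) and 0.40 ± 0.06 after the length and GC adjustment (adjusted p = 0.00766). Like that of Jag2, the call was lost without a filter (adjusted p = 0.0668) and when any library other than control 264 was left out (adjusted p = 0.0561 to 0.130).

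Hes1, a transcriptional repressor and the most abundant member, did not pass. Hes1 (ENSMUSG00000022528, chromosome 16, 30064384 to 30067796, plus strand) had 65.3, 61.9 and 57.6 FPKM in the knockout-labelled libraries and 57.5, 44.6 and 65.2 FPKM in controls 261, 262 and 264. Here control 262 was the low library and control 264 lay next to the highest knockout-labelled one. The difference was 0.16 ± 0.14 (limma adjusted p = 0.439) with all libraries, 0.28 ± 0.12 without control 264 (adjusted p = 0.132) and 0.01 ± 0.09 without control 262 (adjusted p = 0.964). Hey1 (ENSMUSG00000040289, chromosome 3, 8663359 to 8667256, minus strand), a related repressor, had 0.329, 0.365 and 0.336 FPKM in the knockout-labelled libraries and 0.394, 0.276 and 0.411 FPKM in the controls. It did not enter the test, and with no filter its difference was -0.02 ± 0.05 (adjusted p = 0.868).

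**Figure D3:**
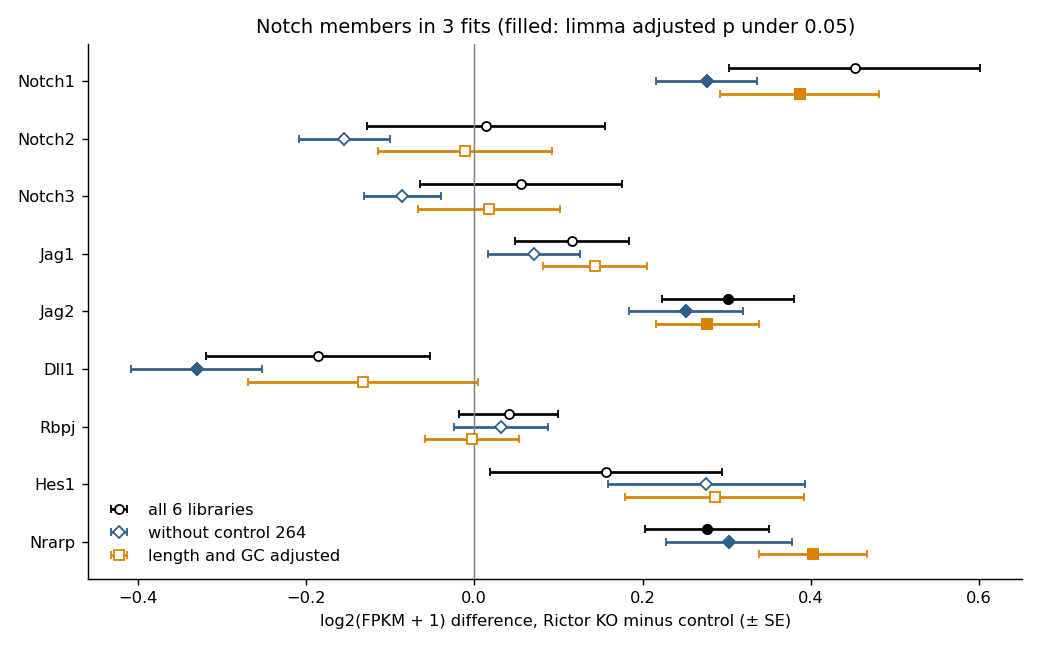
Difference in log2(FPKM + 1), knockout-labelled minus control, with its SE, for the 9 tested members in 3 fits. Jag2 and Nrarp are filled (limma adjusted p under 0.05) in all 3, and Notch1 in the fits without control 264 and with length and GC adjustment. Notch2 and Notch3 lie left of 0 without control 264, and Notch2 and Rbpj do with length and GC adjustment.

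The order of the levels was alike in both groups at the top. In the knockout-labelled libraries Hes1 (61.6 FPKM) and Jag2 (57.6 FPKM) led and overlapped, Notch1 (51.3 FPKM) lay below both, and Jag1, Nrarp and Notch3 followed at 17.7 to 18.5 FPKM with overlapping neighbours. Notch2 (16.3 FPKM), Rbpj (14.1 FPKM) and Dll1 (12.8 FPKM) came next, of which Rbpj and Dll1 overlapped. In the controls Hes1 (55.8 FPKM), Jag2 (46.5 FPKM) and Notch1 (37.8 FPKM) overlapped as neighbours, and the 6 genes from Notch3 (17.2 FPKM) to Rbpj (13.7 FPKM) could not be ordered, since each overlapped the next. Hey1 was last in both groups.

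Promoter windows from RefSeq on GRCm38.p6, from 250 bases before to 50 after a gene's start, were matched by symbol for 8 of the 10 members, in 10 windows. Hes1 and Hey1 had no entry. The members that rose (Nrarp and Jag2), the member with the largest difference in the fit of all libraries (Notch1) and the one whose window holds the RBPJ core are shown, 5′ to 3′ on the strand of the gene. Capitals mark the RBPJ core TGGGAA or its reverse complement TTCCCA, and the E-box CACGTG that Hes and Hey repressors can bind.
Nrarp, chr2:25180508-25180807, plus strand: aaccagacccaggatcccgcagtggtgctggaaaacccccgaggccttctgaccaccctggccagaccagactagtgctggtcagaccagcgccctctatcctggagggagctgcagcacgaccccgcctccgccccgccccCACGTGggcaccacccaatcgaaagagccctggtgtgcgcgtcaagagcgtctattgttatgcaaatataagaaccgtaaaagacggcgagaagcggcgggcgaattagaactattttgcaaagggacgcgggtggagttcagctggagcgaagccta
Jag2, chr12:112929446-112929745, minus strand: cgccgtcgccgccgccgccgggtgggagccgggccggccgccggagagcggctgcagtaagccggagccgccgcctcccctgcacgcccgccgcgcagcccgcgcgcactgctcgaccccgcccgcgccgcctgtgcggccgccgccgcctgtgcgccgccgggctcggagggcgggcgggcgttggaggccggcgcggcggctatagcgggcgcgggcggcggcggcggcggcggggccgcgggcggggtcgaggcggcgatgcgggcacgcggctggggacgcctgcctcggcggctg
Notch1, chr2:26503773-26504072, minus strand: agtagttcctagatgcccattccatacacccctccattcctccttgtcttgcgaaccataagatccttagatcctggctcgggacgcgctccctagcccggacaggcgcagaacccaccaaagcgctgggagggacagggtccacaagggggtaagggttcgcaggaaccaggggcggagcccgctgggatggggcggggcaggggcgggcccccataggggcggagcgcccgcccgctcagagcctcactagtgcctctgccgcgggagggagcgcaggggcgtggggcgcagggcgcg
Rbpj, chr5:53590096-53590395, plus strand: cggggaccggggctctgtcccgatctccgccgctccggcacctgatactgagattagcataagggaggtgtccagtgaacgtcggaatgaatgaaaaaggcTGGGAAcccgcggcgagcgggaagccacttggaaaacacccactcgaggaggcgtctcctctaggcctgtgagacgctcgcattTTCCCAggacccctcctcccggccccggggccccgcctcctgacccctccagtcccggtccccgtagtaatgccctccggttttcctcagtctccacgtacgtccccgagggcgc

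The Rbpj window holds the core at 149 and 65 bases before the start, once on each strand. The window of a second Rbpj start overlaps the first and holds the nearer of these matches again, at 205 bases before that start. No window of the other 7 matched members holds TGGGAA on either strand, and none of the 10 holds the longer GTGGGAA. The Nrarp window holds CACGTG at 108 bases before the start and is the only member window that does. The RefSeq starts shown for Notch1, Jag2 and Rbpj lie inside the longer GENCODE genes. Of 32851 windows of all genes 25.6% hold TGGGAA, 6.38% hold GTGGGAA and 7.15% hold CACGTG. GC content of the shown windows was 60.0% for Nrarp, 86.0% for Jag2, 68.3% for Notch1 and 64.7% for Rbpj.

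In the remaining machinery of the pathway the genes that passed in the unscaled fit of all libraries were all lower. Most belonged to gamma-secretase or the Deltex family, and several of these calls were lost under other scalings. Of 60 other pathway genes 50 were tested, and 0 rose and 10 fell, beside 7.91% and 15.6% of all tested genes, so the lower count is not far from that of genes at large. At limma's unadjusted p under 0.05 they had 4 higher and 16 lower. The share of all tested genes at this cut was not counted, so these counts cannot be set against genes at large. At a limma adjusted p under 0.10, 2 of the 50 were higher and 15 lower, beside 1574 and 2977 of all 13500 tested genes. The median difference of the other pathway genes was -0.05, against -0.06 over all tested genes. Of the lower calls 3 were Deltex genes, and coactivators, corepressors and other Hes genes had 1 each. The balance depended on scaling, with 2 higher and 5 lower after median scaling, 3 and 5 after trimmed mean scaling, 2 and 5 after quantile normalization and 2 and 8 after the length and GC adjustment. Over all 13500 tested genes the 3 scalings, in that order, gave 1394 higher and 1717 lower, 1607 and 1623, and 1527 and 1661. The adjustment called 12.4% of all tested genes higher and 12% lower. Without control 264, 2 rose and 14 fell, beside 11.2% and 16.8% of all tested genes. The genes called higher in these fits were Kat2a, Ctbp2 and Rfng, named after their values were seen. With all libraries unscaled they differed by 0.23 ± 0.08, 0.26 ± 0.08 and 0.23 ± 0.09 and did not pass (limma adjusted p = 0.0853, 0.0629 and 0.108). They passed as higher in 6, 5 and 3 of the 16 alternatives, in that order.

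**Figure D4:**
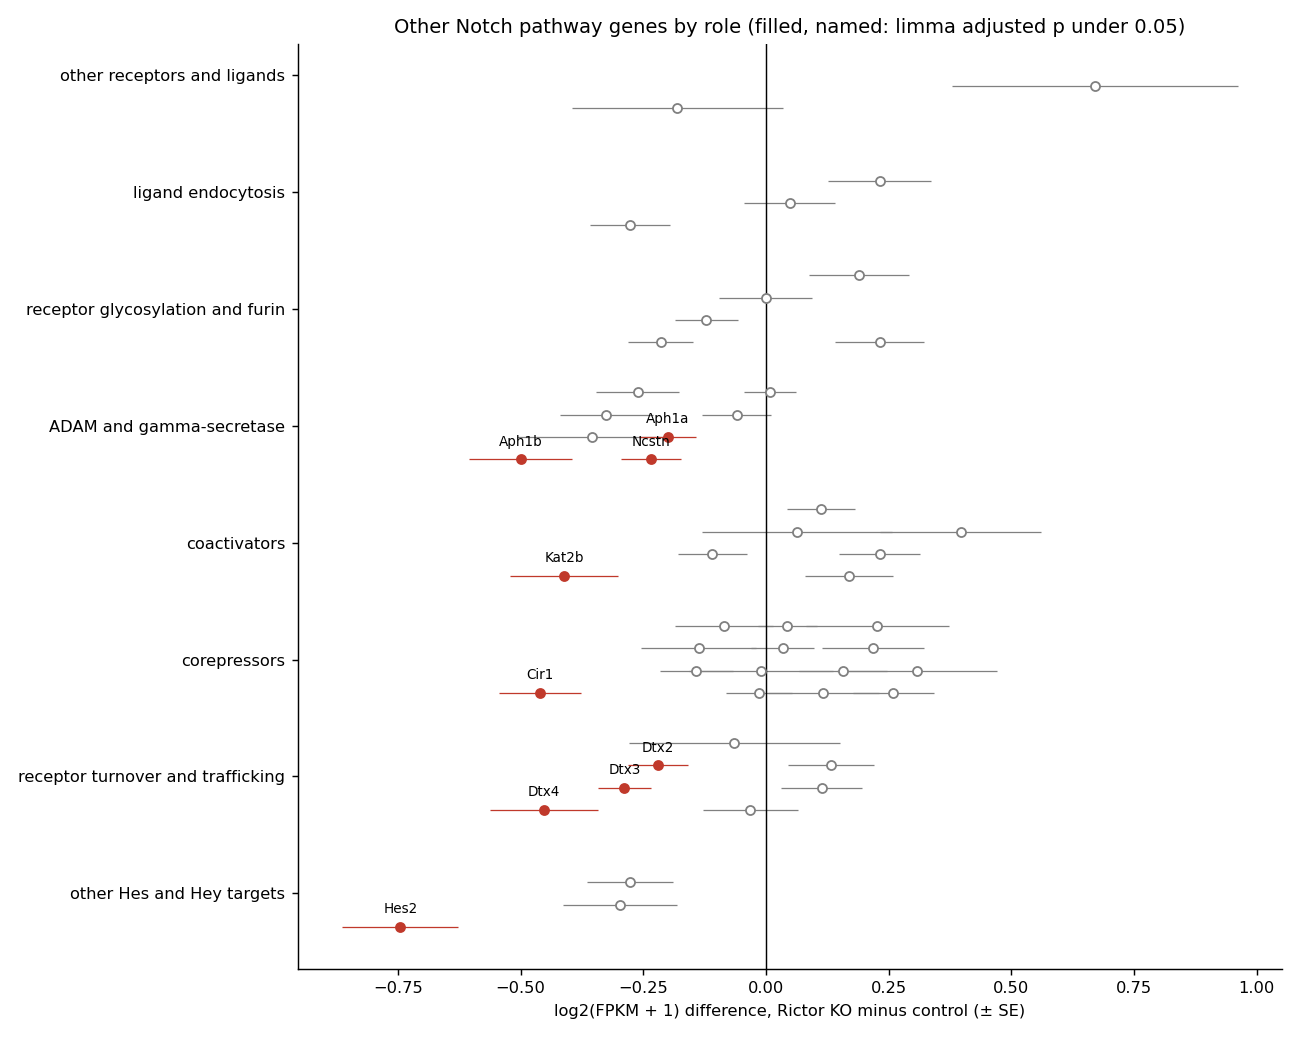
Difference in log2(FPKM + 1), knockout-labelled minus control, with its SE, for tested genes of the rest of the pathway, grouped by role. The 9 genes shown filled and named passed limma's test, and all of them lie left of 0.

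Gamma-secretase is the membrane protease that frees the Notch intracellular domain, and its subunits include nicastrin (Ncstn), an Aph1 protein and Psenen. Ncstn had 42.0, 44.7 and 45.0 FPKM in the knockout-labelled libraries and 50.2, 52.2 and 53.0 FPKM in the controls. Every knockout-labelled library lay below every control. Ncstn fell by 0.23 ± 0.06, Aph1a by 0.20 ± 0.06 and Aph1b by 0.50 ± 0.11 (limma adjusted p = 0.0342, 0.0465 and 0.0183). Psen2 (-0.33 ± 0.10), Psenen (-0.26 ± 0.09) and Aph1c (-0.35 ± 0.15), named after their values were seen, did not pass (adjusted p = 0.0501, 0.0675 and 0.136), and Aph1c entered the test through the controls alone. Psenen passed as lower without control 264 (-0.18 ± 0.05, adjusted p = 0.0369), and with array weights Psen2 and Psenen did (adjusted p = 0.0163 and 0.0260). Ncstn, Aph1a, Aph1b, Psen2 and Psenen were lower under every setting tried that tested them. These settings reuse the same libraries, so a constant sign is no added evidence. The calls of Ncstn and Aph1a were lost after median, trimmed mean or quantile scaling and after the length and GC adjustment, and when any library other than control 264 was left out. That of Aph1a was also lost with a pseudocount of 0.1 and with no intensity trend. The call of Aph1b held under these scalings and the adjustment. It was lost without a filter on low values (limma adjusted p = 0.0557) and without 263 or control 261. Aph1b and Aph1c are close paralogs whose shared reads could be divided either way, so both values are uncertain. The ADAM proteases that make the preceding cut did not pass, with Adam10 at 40.2 ± 0.319 FPKM in the knockout-labelled libraries and 40.0 ± 0.388 FPKM in the controls, chosen after its values were seen.

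The Deltex genes encode ubiquitin ligases that act on Notch receptor traffic. Dtx3 was the steadiest, at 16.2, 16.0 and 16.0 FPKM in the knockout-labelled libraries and 20.1, 19.4 and 19.9 FPKM in the controls (-0.29 ± 0.05, limma adjusted p = 0.0124). Dtx2 (-0.22 ± 0.06) and the low Dtx4 (-0.45 ± 0.11) also fell (adjusted p = 0.0425 and 0.0291). The call of Dtx2 was lost after median and trimmed mean scaling and with no intensity trend. That of Dtx4 was lost after quantile normalization (adjusted p = 0.0733) and without a filter on low values. With a library left out, the call of Dtx3 was lost without 263 or 266, that of Dtx2 without 263, 265, 266 or control 261, and that of Dtx4 without 263, 265 or controls 261 or 262. The fourth gene of the list, Dtx1, named after its values were seen, stayed under 1 FPKM and was not tested.

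Hes2, a relative of Hes1, showed the largest fall of the list. It had 1.48, 1.28 and 1.45 FPKM in the knockout-labelled libraries and 3.57, 2.53 and 3.04 FPKM in the controls, with no overlap and a ratio of means of 0.460. The difference of -0.75 ± 0.12 (limma adjusted p = 0.00778) passed in all 15 other settings that tested it. Of the other 6 Hes and Hey genes 2 were tested and did not pass, Hes6 (-0.28 ± 0.09) and Heyl (-0.30 ± 0.12), named after their values were seen. Hes6 passed as lower without control 264 (adjusted p = 0.0443), and with array weights both did (adjusted p = 0.0161 and 0.0106). Cir1, a corepressor that binds Rbpj, had 13.6, 11.3 and 13.4 FPKM in the knockout-labelled libraries and 17.3, 18.5 and 17.8 FPKM in the controls. It fell by 0.46 ± 0.08 (adjusted p = 0.0116) and passed in all 16 other settings. The acetyltransferase Kat2b fell by 0.41 ± 0.11 (adjusted p = 0.0385). This call was lost under each of the 3 scalings, after the length and GC adjustment, without a filter on low values and without any library other than control 264.

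The roles with no call are given by their most abundant genes. The proprotein convertase Furin, which cuts Notch receptors on their way to the membrane, differed by 0.19 ± 0.10, and the sugar transferase Lfng by -0.000271 ± 0.0947 (limma adjusted p = 0.217 and 0.999). The ligand-side ubiquitin ligases Mib1 and Mib2 differed by 0.05 ± 0.09 and -0.28 ± 0.08 (adjusted p = 0.729 and 0.0506). For Mib2 every knockout-labelled library lay below every control, and it passed as lower without control 264 (-0.33 ± 0.08, adjusted p = 0.0282), after the length and GC adjustment (-0.26 ± 0.07, adjusted p = 0.0332) and in 3 further settings. The Delta-like proteins Dlk1 and Dlk2 differed by 0.67 ± 0.29 and -0.18 ± 0.22 (adjusted p = 0.141 and 0.570), and Dlk1 varied between 3.07 and 7.93 FPKM among the knockout-labelled libraries. The vessel receptor Notch4 and the vessel ligand Dll4, named after their values were seen, were at most 1.22 and 0.124 FPKM in any library.

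Of 6 epidermal genes known to respond to Notch signalling 5 were tested and 0 passed limma's test (median difference 0.00). At limma's unadjusted p under 0.05, where no share of all genes was counted, 1 of the 5 passed. The spinous keratins Krt1 and Krt10, which also stand in the marker list of that layer, differed by 0.00 ± 0.10 and -0.18 ± 0.10 (limma adjusted p = 0.982 and 0.251). Tslp, a cytokine that mouse epidermis makes when Notch signalling is lost, was named after its values were seen and was at most 0.469 FPKM.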

How the data were processed

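Column-purified RNA went into Illumina libraries, per the labels' protocols. The submitters' processing notes list CASAVA, Cufflinks and GRCm38, without versions. No aligner, annotation or strandedness was given in the sources used here. Per the file headers the authors deposited FPKM, 1 column per library. FPKM are not counts, so no count model was used and counting error is not known. Since FPKM divides by library total and gene length, abundant genes that change, or a trend with length, shift the values of the rest.

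GENCODE M21 gave symbols, positions, exonic lengths and GC content for 49195 of 49452 identifiers, and of several rows per symbol the most abundant was used. Values were log2(FPKM + 1), fitted with limma 3.58.1 in R 4.3.3 with an intensity trend, 3 libraries per group and no covariates, and a fold change on this scale understates the change of low genes. Groups came from the sample titles. The adjustment for length and GC content subtracted, per library, a spline fit (5 degrees of freedom each) of the deviations from the gene means. The test was checked on simulated data. Figures used Python 3.11.15 and matplotlib 3.10.9.

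The members and lists were chosen with earlier results of these data known. All members are named. Of the other lists, called genes are named, except that some genes are not reported here, and, for roles with none, the 2 most abundant, and any further gene is said to be chosen after its values were seen. Alternatives were pseudocounts of 0.1 and 5, no filter, a minimum of 5 FPKM, 3 scalings, the length and GC adjustment, no intensity trend, array weights, leaving out every library once, and 0.10 as the threshold for the adjusted p.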

Additional observations from a re-analysis of the deposited data

How the results depend on the processing

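Over 16 alternatives Jag2, Nrarp, Notch1, Jag1, Hes1 and Dll1 kept their direction. Jag2 ranged from 0.22 to 0.37 and Nrarp from 0.22 to 0.40 over the settings that keep all libraries, and both passed in 9 of these 10. Notch1 passed in 4 alternatives, namely the length and GC adjustment, array weights (adjusted p = 0.0437), and without control 261 (0.0477) or control 264. Dll1 passed with array weights (-0.33, adjusted p = 0.00906) and without control 264. Notch2 turned to -0.0111 after the length and GC adjustment and -0.117 with array weights, and ranged from -0.154 to 0.110 with a library left out, below 0 without 266 or control 264. Notch3 turned to -0.0725 with array weights and ranged from -0.0852 to 0.128 with a library left out, below 0 without control 264, and Rbpj to -0.00272 after the length and GC adjustment. The count of called members was 0 without a filter, where more genes are tested, 4 with array weights and 0 to 4 with a library left out. That of the other pathway genes was 6, 23 and 2 to 16 in the same settings, and 17 at a threshold of 0.10. Over all genes it was 3169, of which 1068 were higher, with 1607 higher and 1623 lower after trimmed mean scaling. It was 2231 of 26986 tested genes without a filter, 6272 with array weights and 1462 to 3784 with a library left out. At a threshold of 0.10 it was 4551 of 13500, beside the 17 of 50 other pathway genes. The Jag2 share differed by 4.25 percentage points after the length and GC adjustment, and every other share moved by less than its spread between replicates. Apart from the filter, the cause of these shifts was not tested. No paired analysis was possible because every library has a number of its own. With 3 libraries per group the 95% intervals of Jag1, Hes1, Dll1, Notch2, Notch3 and Rbpj included 0.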
